A study of Ovis aries with 9 samples.

Results

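The transcripts of RBPJ, PCBP4, TRIP12, KLHL5, KLHL2, SEC23B, P3H3, ACADM, MGST1 and TPCN2 were followed in the sheep hypothalamus through puberty. These 10 genes, out of 21284 with a protein-coding RefSeq transcript in the deposited table, were selected on the FPKM values of these same 9 libraries. Each held 1 transcript with a low unadjusted p between postpuberty and an earlier stage, although the rule set no limit for a low p. They carried 123 of the 115108 transcripts in the table, all of them predicted RefSeq models (XM_ identifiers), of which 60 passed a filter on low values (a mean of at least 0.5 FPKM in at least 1 stage) and 2 were at 0 in all 9 libraries. For each gene the transcripts, the share of a transcript in the gene sum, and the gene sum itself are given by library, so that an exchange between isoforms can be told from a change of the whole gene. Because the postpuberty comparison chose the genes, every postpuberty value of these genes is a description without a test.

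Polyadenylated RNA was sequenced from hypothalamic tissue of Dolang ewes at 3 stages, with 3 animals per stage and 1 library per animal. The prepuberty ewes were 120 days old, the puberty ewes, taken at first signs of oestrus, 130 days, and the postpuberty ewes, calm again after it, 150 days, so that stage and age cannot be told apart. All ewes were healthy animals of 1 breed from the same station, and the sources name no treatment that differed between the stages. Values were FPKM, fragments scaled to the length of the transcript and to the mapped fragments of the library, and the table holds neither read counts nor depths, so that the number of reads behind a value is not given.

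A gene can give rise to several messenger RNAs through alternative promoters, splice sites and polyadenylation sites, and these isoforms can differ in the encoded protein or in its untranslated regions. Short reads mostly fall in sequence that isoforms share, and the assembler divides such reads between them by a model, so that a transcript's estimate is less secure than the sum over its gene. In bulk tissue a lower value can mean fewer cells of a type or less RNA per cell, and these cannot be told apart.

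The genes fall into several classes by function. RBPJ is the DNA-binding protein through which Notch receptors act on transcription, and PCBP4 is an RNA-binding protein of the poly(C)-binding family. TRIP12 is a HECT-type ubiquitin ligase, and KLHL5 and KLHL2 are BTB-Kelch proteins, a family of substrate adaptors for cullin 3 ubiquitin ligases. SEC23B is part of the COPII coat that carries cargo from the endoplasmic reticulum, and P3H3 belongs to the prolyl 3-hydroxylases of collagen. ACADM is the medium-chain acyl-CoA dehydrogenase of mitochondrial fatty acid oxidation, MGST1 is a membrane-bound glutathione transferase, and TPCN2 is a cation channel of lysosomes and endosomes.

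The library Puberty 2 stood apart from the rest. In it, 15 of the 123 transcripts were above 0, against 81 to 101 in the other 8 libraries. Among all transcripts 42441 were above 0 in Puberty 2 and 67824 to 71787 in the others, its FPKM summed to 599726 against 359588 to 398109, and 188 transcripts that reached at least 10 FPKM in all other libraries were listed at 0 there, against 0 to 3 in any other library. RBPJ and P3H3 were listed at 0 in it, which can be a failed estimate. Results are therefore given with and without Puberty 2. Of the 17 hypothalamic neuron markers looked up, 6 (AGRP, GHRH, KISS1, GNRH1, SIM1 and NKX2-1) stayed under 0.5 FPKM in all libraries, and GNRH1 was listed at 0 in all 9. The summed levels of 12 marker lists for neurons, glia, vessels, meninges, ependyma, choroid plexus and pituitary overlapped between the postpuberty and the earlier libraries for every list, with or without Puberty 2. The pituitary list ranged from 14.3 to 216 FPKM in postpuberty and from 0.125 to 89.5 FPKM earlier, and the choroid plexus list was at 7616 FPKM in Puberty 3 against 9.07 to 726 FPKM in the other libraries. The part of either in the results was not tested.

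The transcript with the lowest unadjusted p in a postpuberty comparison is called the leading transcript of its gene. All 10 leading transcripts had an unadjusted p below 0.05 in at least 1 postpuberty comparison, which restates the choice, while over all 47002 transcripts tested 1.87% did against prepuberty, 3.46% against puberty and 2.31% in a separate comparison with the average of the earlier stages. In 6 of the 10 genes (RBPJ, PCBP4, TRIP12, KLHL5, SEC23B and P3H3) the leading transcript was higher in all 3 postpuberty libraries than in all 6 earlier ones, and 1.16% of all transcripts behaved so (1.55% when lower ones are counted too). The share of the leading transcript separated in the same way in 2 of 9 genes with several transcripts, RBPJ and KLHL5, against 1.44% of all shares in either direction. The gene sum separated in 1 of 10 genes, P3H3, against 1.06% of all gene sums. Without Puberty 2 the counts were 7 for the leading transcript (MGST1 joined, below), 4 for its share (TRIP12 above and MGST1 below joined) and 2 for the gene sum (PCBP4 joined), against 2.67%, 2.84% and 1.78% of all transcripts, shares and gene sums. The choice of genes used this contrast, so nothing is read from these counts.

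**Figure D1:**
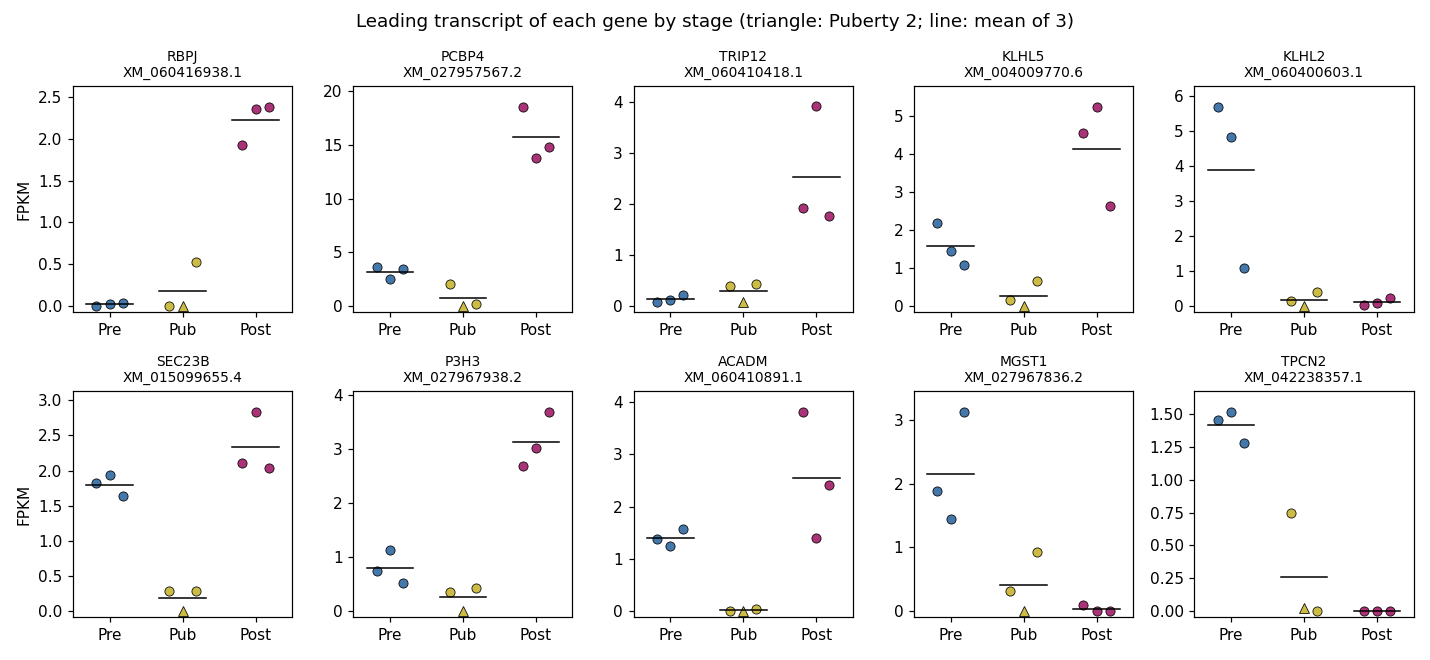
FPKM of the leading transcript of each of the 10 genes (vertical axis) in the 3 libraries of prepuberty, puberty and postpuberty, with 1 point per library, a triangle for Puberty 2 and a line for the mean of 3. The 3 postpuberty points of RBPJ, PCBP4, TRIP12, KLHL5, SEC23B and P3H3 lie above all 6 earlier points.

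RBPJ lies on chromosome 6 (chr6:46220530-46458981, ARS-UI_Ramb_v3.0) and has 20 transcripts in the table, of which 5 passed the filter on low values and 2 were at 0 in all 9 libraries. Its leading transcript, XM_060416938.1, was at 1.93, 2.36 and 2.39 FPKM in postpuberty. It was at 0, 0.0223 and 0.0343 FPKM in prepuberty and at 0, 0 and 0.521 FPKM in puberty. All 3 postpuberty libraries thus lay above all earlier ones, and the mean difference was 1.57 on the log2(FPKM + 1) scale, or 1.52 without Puberty 2. Here and below, differences on this scale and of shares are taken against the average of the prepuberty and puberty means, and differences and ratios of FPKM against the mean of the earlier libraries. The share of this transcript in RBPJ was 29.2%, 79.2% and 42.8% in postpuberty, 0%, 0.335% and 0.543% in prepuberty, and 0% and 23.5% in Puberty 1 and Puberty 3, with no share in Puberty 2 because the gene sum was 0.

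The RBPJ gene sum did not follow the leading transcript. It was 9.09, 6.66 and 6.32 FPKM in prepuberty, 4.29, 0 and 2.21 FPKM in puberty, and 6.61, 2.98 and 5.58 FPKM in postpuberty, so that postpuberty lay within the earlier range. Its difference was 0.34 on the log2(FPKM + 1) scale and came to 0.00 without Puberty 2. There the postpuberty mean of 5.06 FPKM lay between 7.36 FPKM in prepuberty and 3.25 FPKM in puberty. Differences in opposite directions thus cancelled, and the sum was not constant. The earlier transcripts were not the same from animal to animal. In Prepuberty 1 the gene was carried by XM_012179769.4 at 7.24 FPKM, whereas XM_042251291.1 held 5.62 and 5.08 FPKM in Prepuberty 2 and Prepuberty 3 and was at 0 in Prepuberty 1. In postpuberty XM_042251291.1 was at 0.0284, 0.0718 and 0.970 FPKM. A minor RBPJ transcript, XM_042251298.1, was at 0.757, 0.557 and 0.585 FPKM in prepuberty and listed at 0 in the other 6 libraries.

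PCBP4, on chromosome 19 (chr19:49039565-49049528), had 11 transcripts, all of which passed the filter, and 4 of them were higher in all postpuberty libraries than in all earlier ones. Its leading transcript, XM_027957567.2, reached 18.6, 13.8 and 14.8 FPKM in postpuberty. The values were 3.59, 2.47 and 3.42 FPKM in prepuberty and 2.08, 0 and 0.185 FPKM in puberty, and the groups did not overlap. The postpuberty mean was 8.05 times the mean of the 6 earlier libraries and 6.71 times that of the 5 without Puberty 2. The other 3 of the 4, XM_042236131.1, XM_042236134.1 and XM_042236139.1, were at postpuberty means of 1.29 ± 0.489, 2.31 ± 2.19 and 0.681 ± 0.226 FPKM (SD, n = 3). The remaining 7 overlapped, among them XM_042236137.1, whose mean was 1.05 FPKM in postpuberty and 1.35 FPKM in prepuberty.

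The PCBP4 gene sum was 11.6, 14.8 and 11.7 FPKM in prepuberty and 43.0, 25.1 and 54.5 FPKM in postpuberty. In puberty it was 8.13 and 7.49 FPKM in Puberty 1 and Puberty 3, but 56.1 FPKM in Puberty 2, the highest of all 9 libraries. Of that value 46.8 FPKM was on XM_042236136.1 and 9.10 FPKM on XM_042236138.1, while the leading transcript was listed at 0. With Puberty 2 the gene sum therefore overlapped, at 2.23 times the earlier mean, and without it the 3 postpuberty libraries were above all 5, at 3.80 times the earlier mean. The share of the leading transcript overlapped in either case, with 43.3%, 55.2% and 27.2% in postpuberty and at most 31.0% earlier. PCBP4 overlaps 3 annotated genes, and the sources used here do not say whether reads were assigned by strand. ABHD14A was lower in postpuberty, at 2.15, 1.45 and 1.60 FPKM, than in the 5 earlier libraries without Puberty 2, at 2.91 to 7.24 FPKM, and GPR62 was at 13.3, 11.9 and 12.8 FPKM in postpuberty and 6.0 to 23.9 FPKM earlier. The uncharacterised LOC132658215 was higher in all postpuberty libraries, at 1.02, 1.12 and 1.38 FPKM, than in the earlier ones, at 0.473 to 0.854 FPKM. The part of these neighbours in the PCBP4 values was not tested.

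TRIP12, on chromosome 2 (chr2:231803809-231957967), has 50 transcripts in the table, of which 16 passed the filter, and its leading transcript was a minor one in the earlier libraries other than Puberty 2. XM_060410418.1 was at 1.92, 3.92 and 1.76 FPKM in postpuberty. It was at 0.0670, 0.110 and 0.223 FPKM in prepuberty and at 0.384, 0.0717 and 0.437 FPKM in puberty. Every postpuberty library thus lay above every earlier one, and the stage means differed by 1.5 on the log2(FPKM + 1) scale, or by 1.43 without Puberty 2.

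The TRIP12 gene sum lay in the same narrow range in 8 libraries, at 20.2, 23.4 and 20.3 FPKM in prepuberty, 22.8 and 20.5 FPKM in Puberty 1 and Puberty 3, and 20.3, 23.8 and 20.6 FPKM in postpuberty. In Puberty 2 it was 0.125 FPKM, of which the leading transcript made up 57.4%. That library set the share comparison. The share was 9.47%, 16.4% and 8.52% in postpuberty and 0.332% to 2.14% in the other 5 earlier libraries, and its mean difference was 10.2 percentage points without Puberty 2 and 0.950 points with it. Without Puberty 2 the remaining TRIP12 transcripts summed to 18.3 to 19.9 FPKM in postpuberty and 20.0 to 23.3 FPKM earlier, and XM_027965274.2 and XM_027965279.2 were lower in all 3 postpuberty libraries than in all 5 earlier ones. Their means were 0.463 and 0.399 FPKM in postpuberty and 1.5 and 1.36 FPKM earlier. The most abundant TRIP12 transcript in 6 libraries, XM_015093583.3, overlapped between stages, at 7.06, 1.37 and 3.79 FPKM in postpuberty and 2.42 to 6.17 FPKM in the 5 earlier libraries. FBXO36, which overlaps TRIP12, was at most 0.107 FPKM in any library.

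KLHL5, on chromosome 6 (chr6:58965686-59065149), has 15 transcripts, of which 9 passed the filter. Its leading transcript, XM_004009770.6, was at 4.57, 5.26 and 2.63 FPKM in postpuberty, 2.2, 1.45 and 1.09 FPKM in prepuberty, and 0.147, 0 and 0.659 FPKM in puberty. The order of the stages was thus puberty, prepuberty, postpuberty, with no overlap between any neighbours. The share had the same order, at 66.1%, 43.3% and 24.4% in postpuberty, 22.1%, 18.9% and 9.77% in prepuberty, and 5.51%, 0% and 11.2% in puberty, except that Prepuberty 3 lay below Puberty 3.

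The KLHL5 gene sum was 9.93, 7.65 and 11.1 FPKM in prepuberty, 2.67, 1.53 and 5.86 FPKM in puberty, and 6.92, 12.1 and 10.8 FPKM in postpuberty. Prepuberty and postpuberty overlapped in the sum, and puberty was below both. The postpuberty libraries differed among themselves in what else they carried. XM_012179805.4 was at 2.09 FPKM in Postpuberty 3 and listed at 0 in Postpuberty 1 and Postpuberty 2, and XM_042251315.2 was at 2.45 FPKM in Postpuberty 2 against 0.00583 and 0.156 FPKM in the others.

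KLHL2, on chromosome 17 (chr17:542910-706078), has 6 transcripts, of which 4 passed the filter, and its leading transcript was the one that was lower after prepuberty. XM_060400603.1 was at 5.70, 4.84 and 1.08 FPKM in prepuberty, 0.149, 0 and 0.397 FPKM in puberty, and 0.0292, 0.0813 and 0.217 FPKM in postpuberty. Prepuberty was above both later stages, which overlapped each other. The main transcript, XM_027980301.2, was at 1.44, 9.0 and 9.17 FPKM in prepuberty, 8.93, 0 and 11.4 FPKM in puberty, and 11, 12.3 and 10.1 FPKM in postpuberty.

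The KLHL2 gene sum overlapped, at 9.44, 14.3 and 10.4 FPKM in prepuberty, 11, 4.62 and 11.8 FPKM in puberty, and 11.4, 12.4 and 10.4 FPKM in postpuberty. Without Puberty 2 the mean of the leading transcript was 2.32 FPKM lower in postpuberty and that of the other transcripts 2.35 FPKM higher, which left the sum 0.0223 FPKM apart. Prepuberty 1 had 60.4% of the sum on the leading transcript and 15.3% on the main one, whereas the main transcript held 81.3% to 98.6% in the postpuberty libraries, Puberty 1, Puberty 3 and Prepuberty 3. In Puberty 2, 4.56 of 4.62 FPKM was on XM_060400600.1, which was listed at 0 in the other 8 libraries.

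**Figure D2:**
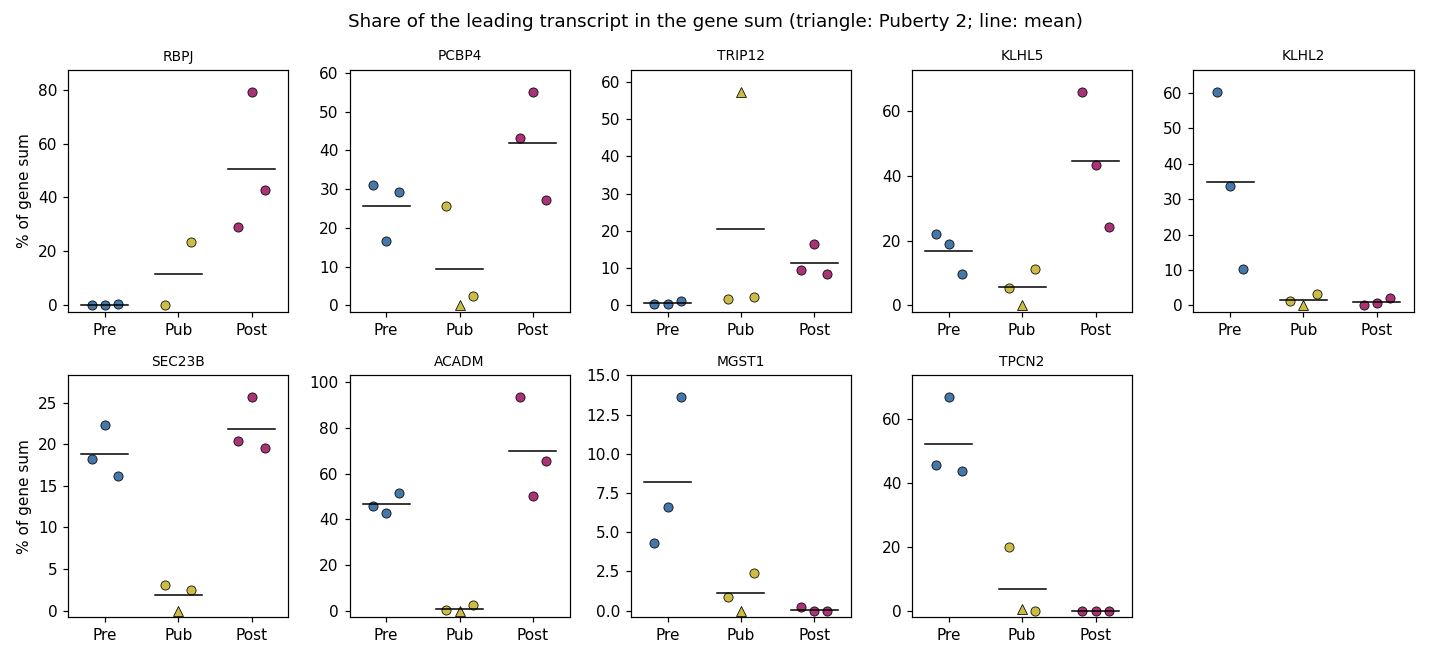
Share of the leading transcript in the sum over all protein-coding transcripts of its gene (vertical axis, % of the gene sum) for the 9 genes with several transcripts, with 1 point per library, a triangle for Puberty 2 and a line for the mean of each stage. RBPJ and KLHL5 separate postpuberty from all earlier libraries, SEC23B and ACADM are low in puberty, and TRIP12 at 57.4% in Puberty 2 lies above its postpuberty shares.

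SEC23B, on chromosome 13 (chr13:38147615-38184453), has 6 transcripts, of which 5 passed the filter. Its leading transcript, XM_015099655.4, was at 1.82, 1.93 and 1.64 FPKM in prepuberty, 0.291, 0 and 0.289 FPKM in puberty, and 2.11, 2.84 and 2.04 FPKM in postpuberty. Postpuberty lay just above prepuberty, with 2.04 FPKM as its lowest value against 1.93 FPKM as the highest earlier one, and the larger gap was to puberty. The share had this shape too. In puberty it was 3.1%, 0% and 2.47%, against 18.2%, 22.3% and 16.1% before, and postpuberty overlapped prepuberty at 20.4%, 25.7% and 19.5%.

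The SEC23B gene sum was 8.67 to 11.7 FPKM in the 8 libraries other than Puberty 2 and 6.13 FPKM there, with postpuberty at 10.4, 11 and 10.4 FPKM. A second SEC23B transcript, XM_015099658.4, was near 0 in postpuberty. It was at 1.05, 1.21 and 2.05 FPKM in prepuberty, 0.329, 0 and 3.39 FPKM in puberty, and 0, 0.130 and 0 FPKM in postpuberty. The most abundant transcript, XM_060397487.1, ranged from 4.36 to 4.86 FPKM in postpuberty and from 2.09 to 6.48 FPKM in the 5 earlier libraries. In Puberty 2 the whole sum was on XM_015099656.4.

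P3H3, on chromosome 3 (chr3:209449458-209463064), has 1 transcript in the table, so that transcript and gene cannot be told apart and no isoform exchange can be measured. XM_027967938.2 was at 2.69, 3.03 and 3.69 FPKM in postpuberty, 0.753, 1.13 and 0.523 FPKM in prepuberty, and 0.357, 0 and 0.428 FPKM in puberty. The postpuberty values lay above all earlier ones, at 5.90 times the earlier mean, or 4.92 times without Puberty 2. The summed fibroblast and meningeal markers, from cells that make much collagen, were at 151, 20.5 and 67.3 FPKM in the same postpuberty libraries and at 14.1 to 124 FPKM earlier, and overlapped.

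ACADM, on chromosome 1 (chr1:51911864-52000707), has 2 transcripts, and both passed the filter. XM_060410891.1, the leading one, was at 1.38, 1.26 and 1.57 FPKM in prepuberty, 0.00631, 0 and 0.0427 FPKM in puberty, and 3.81, 1.41 and 2.42 FPKM in postpuberty. XM_060410892.1 was at 1.62, 1.68 and 1.48 FPKM in prepuberty, 2.10, 0.0239 and 1.83 FPKM in puberty, and 0.261, 1.40 and 1.27 FPKM in postpuberty. The leading transcript was all but missing in puberty, while Postpuberty 2 fell within the prepuberty range. Its share in the puberty libraries was 0.3%, 0% and 2.28%. The prepuberty libraries had 45.9%, 42.8% and 51.5%, and postpuberty had 93.6%, 50.2% and 65.6%.

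The ACADM gene sum was 3.0, 2.93 and 3.05 FPKM in prepuberty, 2.10, 0.0239 and 1.87 FPKM in puberty, and 4.07, 2.80 and 3.69 FPKM in postpuberty. Postpuberty 2 was below all 3 prepuberty libraries, so that these groups overlapped, and puberty was below both. Without Puberty 2 the other transcript was lower in all 3 postpuberty libraries than in all 5 earlier ones.

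MGST1, on chromosome 3 (chr3:199108271-199129893), has 4 transcripts, all of which passed the filter, and had the highest gene sum of the 10 genes in 6 of 9 libraries. Its leading transcript, XM_027967836.2, was a minor one at 1.88, 1.44 and 3.12 FPKM in prepuberty, 0.316, 0 and 0.933 FPKM in puberty, and 0.0955, 0 and 0 FPKM in postpuberty. Without Puberty 2 the postpuberty libraries lay below all others, and with it they overlapped. Its share was 4.30%, 6.59% and 13.6% in prepuberty and at most 2.42% in any later library.

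The 2 main MGST1 transcripts overlapped between all stages. XM_012175292.3 was at 15.2 ± 5.79 FPKM in prepuberty, 18.0 ± 3.91 FPKM in puberty and 20.8 ± 5.22 FPKM in postpuberty (SD, n = 3). XM_004006818.5 was at 11.3 ± 6.49, 16.4 ± 3.18 and 14.3 ± 5.51 FPKM in the same order. The gene sum was 43.8, 21.8 and 22.9 FPKM in prepuberty, 35.1, 33.4 and 38.6 FPKM in puberty, and 47.0, 25.9 and 34.6 FPKM in postpuberty, and Puberty 2 did not stand apart here.

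TPCN2, on chromosome 21 (chr21:42774118-42804286), has 8 protein-coding transcripts, of which 3 passed the filter. Its leading transcript, XM_042238357.1, was at 1.45, 1.52 and 1.28 FPKM in prepuberty, 0.744, 0.0250 and 0 FPKM in puberty, and listed at 0 in all 3 postpuberty libraries, so that no fold is given. A second transcript, XM_027959339.2, was at 1.46, 0.110 and 1.57 FPKM in prepuberty, 1.17, 0 and 0.423 FPKM in puberty, and 2.94, 3.06 and 6.10 FPKM in postpuberty. This transcript lay above all 6 earlier libraries in postpuberty, and it held 85.5%, 91.6% and 98.8% of the gene sum there against 0% to 53.5% earlier.

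The TPCN2 gene sum overlapped between stages, at 3.18, 2.27 and 2.92 FPKM in prepuberty, 3.75, 6.50 and 0.954 FPKM in puberty, and 3.44, 3.34 and 6.17 FPKM in postpuberty. In Puberty 2, 6.46 of 6.50 FPKM was on XM_042238355.1, which was at most 0.563 FPKM elsewhere. The leading transcript had 45.7%, 67.0% and 43.9% of the sum in prepuberty and 19.9%, 0.384% and 0% in puberty.

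**Figure D3:**
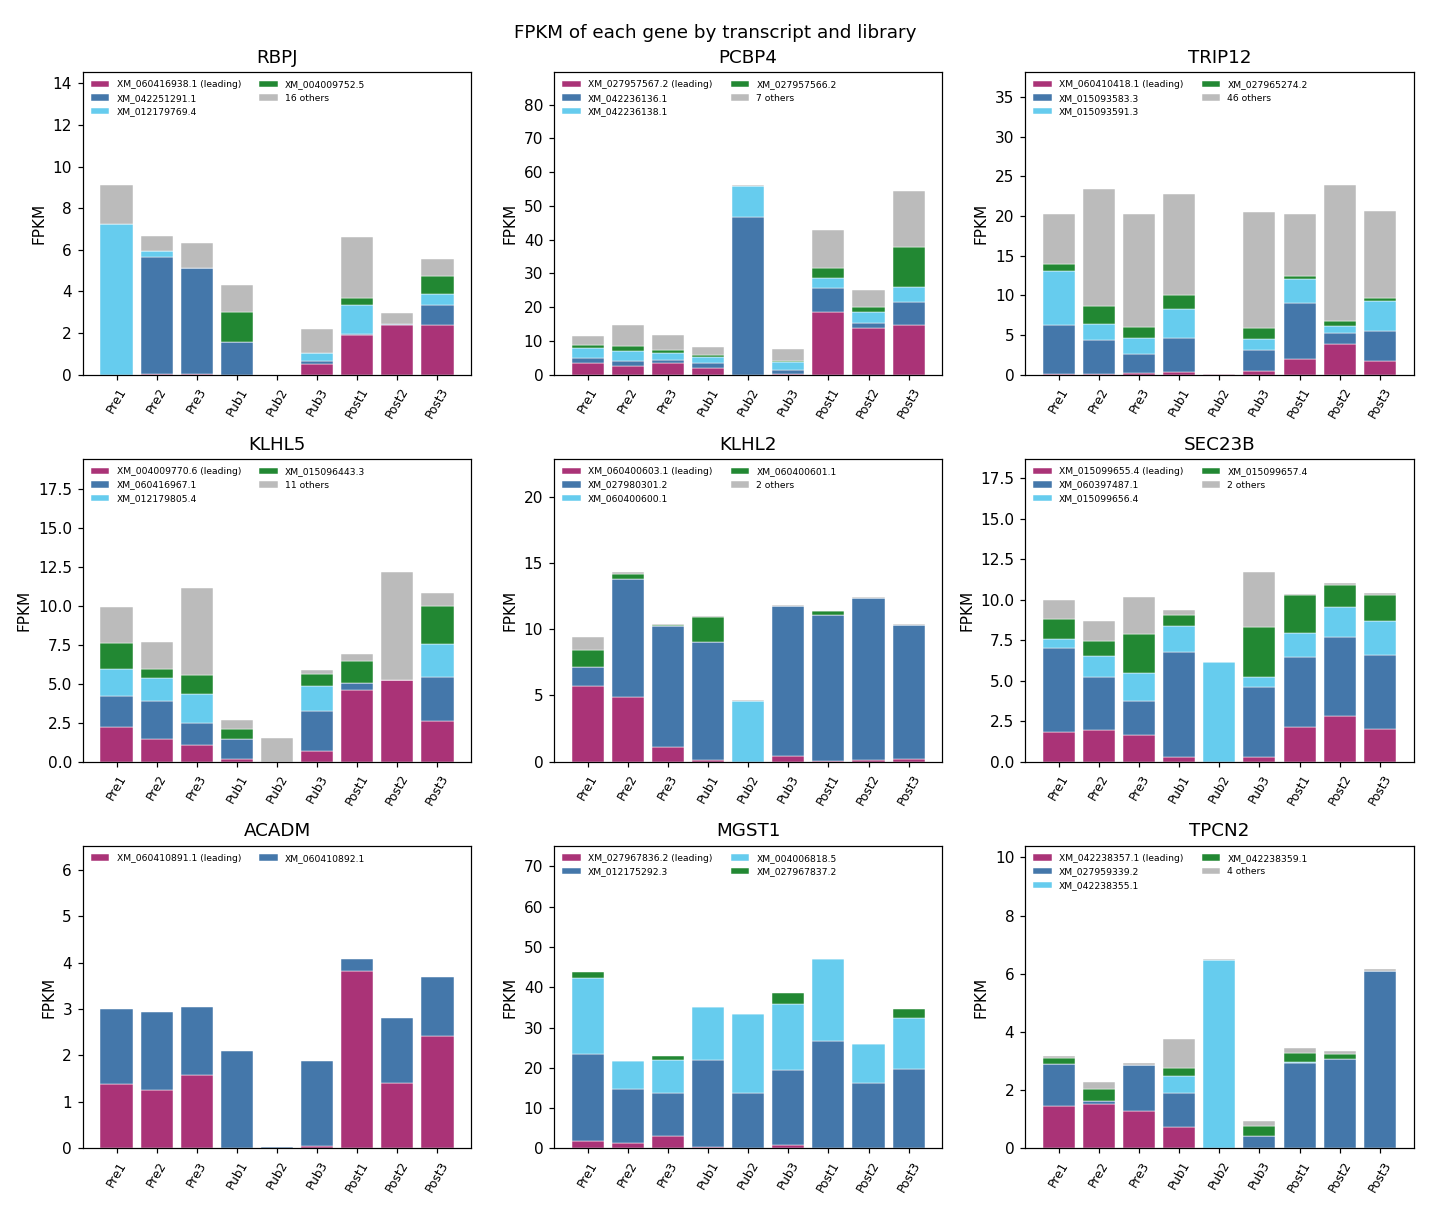
FPKM (vertical axis) of the transcripts of the 9 genes with several models, stacked in each of the 9 libraries, with the leading transcript at the bottom, the 3 others of highest mean level in colour and the remaining ones in grey. The height of a bar is the gene sum, which stays at 20.2 to 23.8 FPKM in TRIP12 outside Puberty 2 and reaches 56.1 FPKM in PCBP4 in Puberty 2, where the leading transcript is listed at 0.

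**Figure D4:**
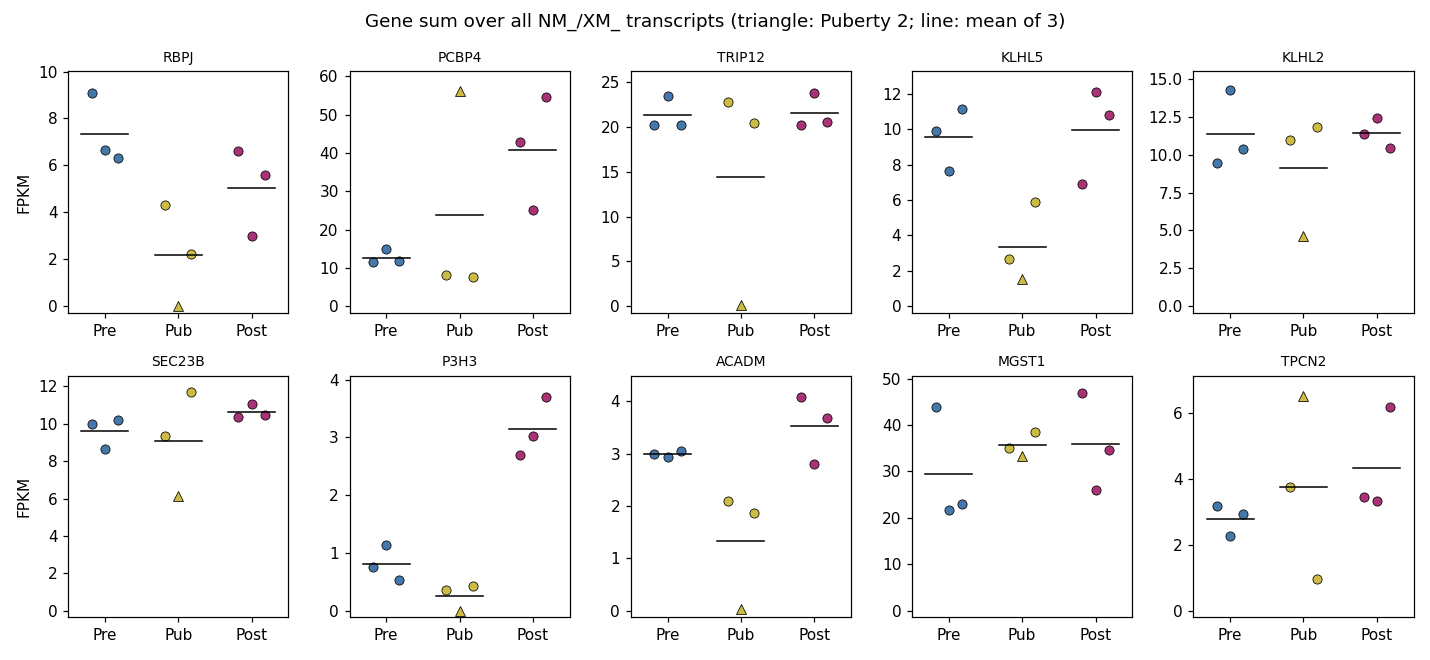
Sum over all protein-coding transcripts of each gene (vertical axis, FPKM) by stage, with 1 point per library, a triangle for Puberty 2 and a line for the mean of 3. The sums of P3H3 separate postpuberty from the 6 earlier libraries, those of PCBP4 do so without Puberty 2 at 56.1 FPKM, and the other 8 overlap.

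The change in the mean of the leading transcript was set beside that of all other transcripts of its gene. P3H3 has a single transcript, and its sum was 2.61 FPKM higher in postpuberty than in the 6 earlier libraries. In PCBP4 the leading and the other transcripts were both higher, by 13.8 and 8.77 FPKM, or by 13.4 and 16.7 FPKM without Puberty 2. In the remaining genes the mean of the other transcripts went opposite to the leading transcript in 6 of 8 with all earlier libraries. Without Puberty 2 it did so in all 8. These are signs of means with no share over all genes beside them. The leading transcript was chosen on this contrast, so nothing is read from these signs. The sum of the other transcripts overlapped between postpuberty and the earlier libraries in all 8 with Puberty 2, as it did in PCBP4. Without Puberty 2 it overlapped in PCBP4 and in 5 of the 8 (RBPJ, KLHL5, KLHL2, SEC23B and MGST1). These counts have no share over all genes beside them either, and nothing is read from them. In TRIP12 the leading transcript was 2.29 FPKM higher and the others 2.15 FPKM lower without Puberty 2, and in RBPJ 2.11 FPKM higher and 2.77 FPKM lower. In KLHL5 the leading transcript was 3.04 FPKM higher and the others 0.552 FPKM lower, and in TPCN2 the leading transcript was 1.0 FPKM lower and the others 2.70 FPKM higher. The log2 difference of the gene sum without Puberty 2 was 0.00 in RBPJ, 0.01 in TRIP12, 0.01 in KLHL2 and 0.07 in SEC23B (0.34, 0.73, 0.20 and 0.19 with it), while the share of the leading transcript differed by 44.4, 10.2, -17.6 and 11.1 percentage points, both against the average of the earlier stage means. Of these shares, those of RBPJ and TRIP12 did not overlap without Puberty 2, and those of KLHL2 and SEC23B did. In the other genes with several transcripts the gene sum differed by 1.87 in PCBP4, 0.56 in KLHL5, 0.38 in ACADM, 0.11 in MGST1 and 0.61 in TPCN2 without Puberty 2, and by 1.42, 0.73, 0.64, 0.14 and 0.39 with it. The 0.00 of RBPJ does not mean a constant gene sum, since its postpuberty mean lay between a higher prepuberty and a lower puberty mean. The KLHL2 share difference was -17.2 points with all libraries and -10.8 points without Prepuberty 1. With Puberty 2 the others were 1.37 FPKM higher in TRIP12 and 0.251 FPKM higher in KLHL5, and these signs turned. Isoforms of 1 gene share reads in a library, so their estimates are not independent of each other. Assembled transcripts without a RefSeq identifier may hold reads of these genes and are in neither the sums nor the shares.

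**Figure D5:**
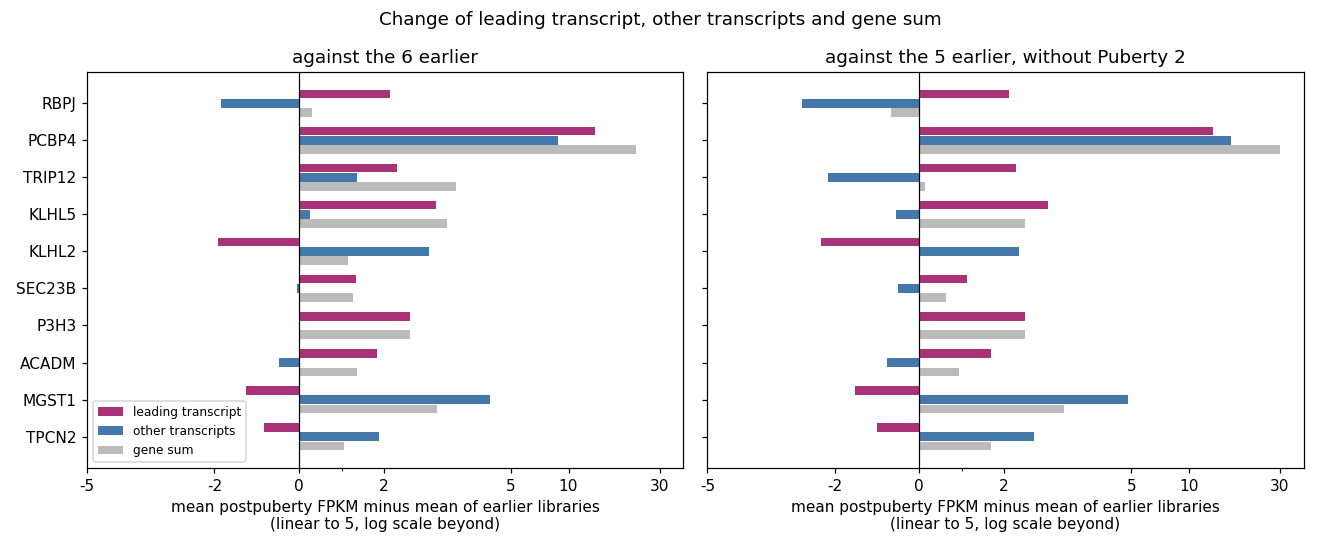
Mean FPKM in postpuberty minus the mean of the 6 earlier libraries (left) and of the 5 without Puberty 2 (right) for each gene, as bars for the leading transcript, the sum of the other transcripts and the gene sum, on a horizontal axis that is linear up to 5 FPKM and logarithmic beyond. In PCBP4 all bars point to higher values, and without Puberty 2 the bars of the leading and the other transcripts point to opposite sides in the other 8 genes with several transcripts.

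Prepuberty and puberty were compared with limma, since that contrast was not the one on which the genes were chosen, but it uses the same earlier libraries and is not independent of the choice. No transcript of the 60 that passed the filter was called at an adjusted p below 0.05 with at least a log2 fold change of 1, and 0.00213% of all transcripts were. At an unadjusted p below 0.05, 11 of the 60, from 8 genes, were higher in prepuberty and 0 lower, against 2.09% and 1.13% of all transcripts, 3.21% together, and the smallest adjusted p was 0.810. Without Puberty 2 the number was 9, against 3.33% of all transcripts in either direction. Since the choice of genes used these libraries too, nothing is read from the count. Among the 11 were 7 leading transcripts, those of KLHL2, SEC23B, ACADM, TPCN2, MGST1, PCBP4 and KLHL5. KLHL2 had the largest difference, 1.89 ± 0.43 (SE) on the log2(FPKM + 1) scale, with an adjusted p of 0.810, followed by PCBP4 at 1.42 ± 0.44 with the same adjusted p. The leading transcripts of KLHL2, MGST1 and TPCN2 passed the filter only through prepuberty. Among the 11 so did XM_042251298.1 of RBPJ and XM_060416963.1 and XM_060416966.1 of KLHL5. A higher prepuberty value was thus built into their choice, and their differences are not read as results. The low puberty values of the leading transcripts of SEC23B, ACADM, KLHL5 and PCBP4 also entered the postpuberty comparisons used for the choice. Their differences are therefore not read as results either.

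Gene sums gave 0 of 10 called in limma, as 0% of all gene sums were, and 3 at an unadjusted p below 0.05, against 1.82% of all (0.983% higher in prepuberty). These were RBPJ, with 1.69 ± 0.56 (SE) on the log2(FPKM + 1) scale, KLHL5 with 1.39 ± 0.39 and ACADM with 0.93 ± 0.41, all higher in prepuberty, with an adjusted p of 0.838 each. The choice of genes used these libraries, so nothing is read from this number, with or without Puberty 2. Without Puberty 2 that number was 2, against 1.66% of all gene sums, with differences of 1.06 ± 0.33 in KLHL5, 1.0 ± 0.34 in RBPJ and 0.42 ± 0.18 in ACADM, the one that no longer passed, and an adjusted p of 1 each.

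Shares gave 0 of 59 called in limma, as 0% of all shares were, and 10 at an unadjusted p below 0.05, against 4.22% of all, of which 9 were higher in prepuberty and 1 lower. The 1 was XM_060410892.1 of ACADM, the mirror of the leading transcript. The lowest adjusted p, 0.280, was that of XM_042251298.1 of RBPJ, for which Puberty 2 had no share and dropped out of the fit, and its difference between the arcsine square roots of the shares was 0.30 ± 0.04 (SE). In a fit without Puberty 2, 10 of 59 shares had an unadjusted p below 0.05, against 4.93% of all, and this share was the 1 called, with an adjusted p of 0.0455 in limma, against 0.0534% of all. It passed the filter only through prepuberty, since it was listed at 0 in all libraries of the later stages, so that a difference was built into its choice and the call is not read as a result. The same limit holds for the shares of the leading transcripts of KLHL2, MGST1 and TPCN2, and of XM_060416963.1 and XM_060416966.1 of KLHL5. As the choice of genes used these libraries, nothing is read from the counts of member shares, with or without Puberty 2.

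Genes related to the members by pathway or protein family were listed by role, 120 in all, of which 114 passed the filter on gene sums. Many are relatives of a member and need not act with it. The lists held the Notch pathway, poly(C)-binding proteins, HECT ligases, cullin 3 adaptors, the COPII coat, collagen hydroxylation, fatty acid oxidation, glutathione enzymes and endolysosomal channels. In limma 0 of 114 were called between any pair of stages, with smallest adjusted p of 0.838 for prepuberty against puberty, 1 for postpuberty against prepuberty and 0.780 for postpuberty against puberty. At an unadjusted p below 0.05 the numbers were 0, 2 and 3 in the same order, against 1.82%, 0.815% and 2.14% of all gene sums. The median log2 difference of the 114 was 0.16, 0.07 and 0.25, beside 0.14, 0.05 and 0.19 over all gene sums.

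The cullin 3 adaptor KLHL12, which also acts on the COPII coat, was among these. It was at 1.08, 0.340 and 0.137 FPKM in prepuberty, 0.225, 0.0127 and 0.213 FPKM in puberty, and 1.5, 0.990 and 1.42 FPKM in postpuberty, a difference of 1.0 ± 0.25 (SE) from puberty with an adjusted p of 0.780. The HECT ligase NEDD4L, which acts on membrane channels, was at 3.03, 4.78 and 4.91 FPKM in prepuberty, 7.13, 5.16 and 7.69 FPKM in puberty, and 10.2, 8.57 and 7.52 FPKM in postpuberty, a difference of 0.91 ± 0.27 from prepuberty with an adjusted p of 1. In fatty acid oxidation ECI1, an enoyl-CoA isomerase, was at 14.4, 9.45 and 12.3 FPKM in prepuberty. It was at 10.6, 25.6 and 26.1 FPKM in puberty and 11.1, 9.30 and 11.5 FPKM in postpuberty. Postpuberty differed from puberty by -0.81 ± 0.35 with an adjusted p of 0.780 in limma, and overlapped prepuberty. The genes with the lowest p in the other 6 lists were HEY1, PCBP1, SEC16A, PLOD1, GCLC and CLCN7, each with an adjusted p of at least 0.780. None of these differences passed the test.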

How the data were processed

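Total RNA of 9 hypothalamic samples, 3 per stage, was sequenced after selection on poly-A tails. Per the labels, reads were trimmed with Trimmomatic (0.32), aligned with HISAT2 to the sheep genome and assembled with StringTie. The deposited table, although named as raw counts, holds FPKM per transcript from the authors, without counts or depths, so that no counting interval was made. Transcripts were matched by accession to RefSeq genes of ARS-UI_Ramb_v3.0 (89672 of 89674), 25434 assembled transcripts without a RefSeq identifier entered no gene sum or share although they may hold reads of these genes, and all value columns were used. Reads shared by isoforms were divided by StringTie's model.

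A gene sum is the FPKM of its protein-coding (NM_ or XM_) transcripts and a share is a transcript's part of it. Transcripts (47002) and gene sums (14238) with a mean of at least 0.5 FPKM in at least 1 stage were fitted in limma 3.58.1 (R 4.3.3) on log2(FPKM + 1), which understates changes of low values, and shares (22912) after an arcsine square root. The 9 libraries entered 1 fit with a mean-variance trend, p-values were adjusted by Benjamini-Hochberg over all features, and calls needed an adjusted p below 0.05 and, except for shares, a log2 change of 1 or more in either direction. Differences are first minus second stage. The p-values rest on the spread between the 3 animals within each stage, pooled over the 3 stages and moderated by limma towards the trend over all features. Some of the steps were tried on simulated data. The outcome is not given here, and nothing is read from that trial.

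Named were all 10 genes, as leading transcript the one with the lowest unadjusted p over the postpuberty contrasts, and in each list of related genes the one with the lowest p. Members and lists were chosen with earlier results of these data known. Alternatives were other scalings, filters and pseudocounts, no trend, untransformed shares, shares of all RefSeq transcripts, adjustment over protein-coding transcripts, a replicate block and leaving out each library. Sequences of the transcripts were not used here.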

Additional observations from a re-analysis of the deposited data

How the results depend on the processing

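Without counts, no depth limit can be set on values near 0, and with 3 animals per stage an exact permutation test of 1 value could not go below 0.1. Replicate numbers did not pair the animals (correlations of -0.132 to 0.231 between same-numbered libraries), and with a replicate block the prepuberty to puberty comparison gave 11 transcripts, 3 gene sums and 10 shares of the members at an unadjusted p below 0.05, as without it, and 0 called. Without a filter 21 of 121 member transcripts had an unadjusted p below 0.05, against 11 of 60, and 2.97% of all transcripts did. With a gene sum of at least 2 FPKM in place of the transcript filter, 22 of 122 shares were at an unadjusted p below 0.05, against 10 of 59 and 3.62% of all shares, and 1 was called (XM_042251298.1 of RBPJ, adjusted p of 0.0252 in limma), against 0 before and 0.0515% of all shares in that fit. The transcript filter had no part in that call. The choice of genes used these libraries, however, so neither the call nor any count of members in this paragraph is read as a result. Under both scalings, the other pseudocount and the wider share definition the postpuberty differences of the 10 genes kept their direction, and a pseudocount of 0.1 made those of the leading transcripts larger (RBPJ from 1.57 to 3.98). Among the related genes at an unadjusted p below 0.05, a pseudocount of 0.1 gave 1 instead of 2 (postpuberty against prepuberty). Upper-quartile scaling gave 1 instead of 0 (prepuberty against puberty). Neither count has a share over all gene sums beside it, and nothing is read from them. Leaving out 1 library at a time gave 9 to 14 member transcripts (2.46% to 6.5% of all) and 10 to 14 shares (3.32% to 7.85% of all) with 0 to 1 called. It gave 0 to 4 related genes for prepuberty against puberty, against 1.35% to 5.09% of all gene sums. For postpuberty against prepuberty it gave 1 to 3, and for postpuberty against puberty 2 to 6. These 2 counts have no share over all gene sums beside them, and nothing is read from them. The 4 and the 6 came without Puberty 1, another 6 without Puberty 3, and the called share without Puberty 2. Without Puberty 1, 5.09% of all gene sums were at an unadjusted p below 0.05 between prepuberty and puberty. Leaving out 1 library gave 6 to 7 separated leading transcripts (2.22% to 5.05% of all transcripts), 2 to 4 shares (2.23% to 4.56%) and 1 to 2 gene sums (1.42% to 4.4%). It gave 0 to 3 sums of the other transcripts, a count without a share over all genes beside it, from which nothing is read. The 4 shares and the 3 sums of other transcripts came without Puberty 2, and 2 gene sums separated without Puberty 2, Puberty 3 or Postpuberty 2. Also on leaving out 1 library, the log2 difference of the RBPJ gene sum ran from 0.00 to 0.62 and that of MGST1 from -0.07 (without Postpuberty 1) to 0.34. For the gene sums of TPCN2, TRIP12, KLHL2 and SEC23B it ran from 0.12 to 0.61, 0.01 to 1.11, 0.01 to 0.31 and 0.07 to 0.28. The TRIP12 share difference ran from -3.73 points without Puberty 1 to 10.2 points without Puberty 2. Scaling to equal totals moved the median postpuberty to puberty difference of all gene sums from 0.19 to 0.33, and upper-quartile scaling moved it to 0.10. The causes were not tested.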

Other observations

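The genes outside the 10 whose sum followed a leading transcript most closely over the 9 libraries, by Pearson r on log2(FPKM + 1), were the transcription factor gene POU4F1 for KLHL2 (0.936), the laminin gene LAMA4 for RBPJ (0.931), the transcription factor gene SP9 for TRIP12 (0.920) and the kinase gene YES1 for ACADM (0.939). For the others they were ZNF619 for KLHL5 (0.976), FAM124A for TPCN2 (0.964), DEDD for SEC23B (0.962), CYRIA for P3H3 (0.952), TRANK1 for PCBP4 (0.946) and SORCS2 for MGST1 (0.895). Without Puberty 2 these r lay between 0.904 and 0.986. They are the highest of all gene sums over few libraries that share a stage, and are given as a description.

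The transcript with the highest FPKM of its gene was not the same in all libraries in 9 of the 10 genes, or in 8 without Puberty 2. Without that library RBPJ had 4 different top transcripts, PCBP4, TRIP12 and KLHL5 had 3, KLHL2, SEC23B, ACADM and TPCN2 had 2, and MGST1 had 1. With it PCBP4 and KLHL5 had 4, KLHL2, SEC23B and TPCN2 had 3, and MGST1 had 2. These counts have no share over all genes beside them, and the genes were chosen for 1 transcript that differed. Nothing is read from them. Genes in the gene sum comparison had a median of 2 protein-coding transcripts each, and 33.2% had 1, while the 10 genes had 1 to 50.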
